A study of Homo sapiens with 12 samples.

Results

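BTRC and 6 genes of the SCF ubiquitin ligases (FBXW11, FBXW7, SKP2, SKP1, CUL1 and RBX1) were followed across 4 oligo treatments of PANC-1, a cell line from a human pancreatic ductal adenocarcinoma. These are 7 of the 20046 genes with a symbol on the array, represented by every probe annotated to them, 18 of 47231 probes. BTRC was chosen by its measured signal, which was lower in premir miR-10b cells than in premir control cells, and the other genes were added as its paralogue, other F-box receptors and the core subunits. Its values in that comparison are therefore a description and carry no test. The cells received premir miR-10b, premir control, antimir-10b or antimir control and were harvested 20 h later. A premir is a synthetic precursor that supplies a microRNA, an antimir is an inhibitor directed at one, and each control is an oligo of the same kind. Each of the 4 groups held 3 biological replicates, 12 Illumina arrays in all, of 1 cell line. The sources do not say whether the replicates were separate cultures, so the p-values measure the spread between these samples.

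SCF ligases attach ubiquitin to proteins and so mark them for the proteasome. CUL1 is the scaffold, RBX1 the RING subunit that recruits the ubiquitin-carrying E2 enzyme, and SKP1 the adaptor that holds an exchangeable F-box protein. The F-box protein chooses the substrate. BTRC and its paralogue FBXW11, also known as the beta-TrCP proteins, recognise phosphorylated beta-catenin, the inhibitor of NF-kB and several cell cycle regulators. FBXW7 recognises cyclin E, MYC and Notch, and SKP2 recognises the cell cycle inhibitor p27. Because the arrays read transcripts, none of the values below is a measure of protein or of ligase activity.

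The raw bead signal is a brightness on a linear scale, and a probe counted as detected on an array when its deposited detection p was under 0.05. Of the 47231 probes, 21195 were detected on at least 3 arrays and were tested. On 11 arrays, 39.2% to 41.3% of probes were detected, with a lowest correlation between arrays of 0.987. One array, premir miR-10b replicate 2, did not resemble the rest: it detected 29.5% of probes, its median correlation with the other arrays was 0.873, and its 95th percentile of raw signal was 733.1, where the 11 others ranged from 1188.2 to 1778.3. For this reason log2 changes that use that array are given for all 12 arrays and without it (11 arrays), while changes between the other groups keep their value and differ only in the p. The labelled cell line was checked by markers, with a gene counted when a probe was detected on at least 3 arrays. All 5 ductal and mesenchymal genes chosen as PANC-1 markers were counted, and 1 of 8 acinar and islet genes (AMY2A). So were 3 of 10 genes of stroma, leukocytes and endothelium (COL1A1, DCN and CD14). COL1A1 and CD14 were detected on all 12 arrays, and KRT7 of the PANC-1 markers on 11. AMY2A and DCN were detected on 5 and 3 arrays, with brightest probes reading at most 87.4 and 86.3. The 7 probes of the PANC-1 markers summed to a raw signal of 4321.2 on premir miR-10b replicate 2 and 35276.7 to 40558.0 on the other premir miR-10b arrays, 34970.2 to 41700.8 in premir control cells, 37420.7 to 39053.6 in antimir-10b cells and 35495.9 to 41429.0 in antimir control cells. The summed raw signal of the 18 stromal, leukocyte and endothelial probes was 1643.4 to 1880.4 in premir miR-10b cells (from 1774.8 without replicate 2), 1499.2 to 1861.1 in premir control cells, 1330.3 to 1724.9 in antimir-10b cells and 1392.6 to 1685.7 in antimir control cells. The 12 acinar and islet probes summed to 713.0 to 784.9 in premir miR-10b cells (from 783.1 without replicate 2), 780.5 to 809.4 in premir control cells, 677.9 to 711.5 in antimir-10b cells and 731.4 to 752.6 in antimir control cells. The part of such cells in the results was not tested. The 1 probe for the MIR10B gene was detected on 1 array and does not read the transfected oligos.

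BTRC signal was near background in the premir miR-10b cells and clearly above it in the other 9 samples. Probe ILMN_1815718 had raw signals of 75.9, 43.2 and 65.3 in premir miR-10b replicates 1 to 3, with detection p of 0.158, 0.923 and 0.438. The premir control replicates read 148.0, 145.7 and 160.2, all with a detection p of 0.0013. Every premir miR-10b array thus lay below every premir control array and was not above background, including both arrays that were otherwise like the rest. After normalization the mean was 5.01 ± 0.19 on the log2 scale in premir miR-10b cells and 6.57 ± 0.20 in premir control cells (SD, n = 3 each), a log2 change of -1.56 (SE 0.19). Without replicate 2 the premir miR-10b mean was 5.11 and the log2 change was -1.46 (SE 0.18). Since no premir miR-10b array was above background, the fold on this normalized scale is a bound, taken against the lowest signal that each array detected: BTRC signal was at least 2.10-fold lower with 12 arrays and at least 2.36-fold lower with 11. The bound holds for this background correction and its offset of 16 alone, because a larger offset shrinks the fold of a dim probe: with an offset of 50 the log2 change was -0.94. In these bulk extracts, loss of the transcript from some cells and less of it in every cell cannot be told apart.

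**Figure D1:**
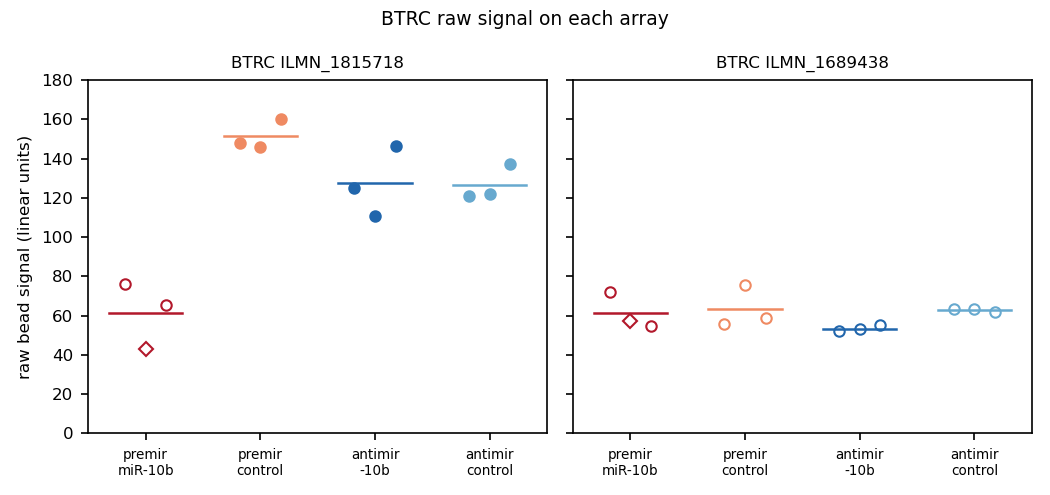
Raw bead signal (linear units) of both BTRC probes on each of the 12 arrays, by group; filled symbols are detected (detection p under 0.05), open symbols are not, the diamond is premir miR-10b replicate 2 and lines are group means. For ILMN_1815718 the 3 premir miR-10b arrays read 43.2 to 75.9 and the 3 premir control arrays 145.7 to 160.2, while ILMN_1689438 was detected on no array.

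A pattern of this kind was uncommon among the probes of the array, as a description only because it was used to choose BTRC. Of 15312 probes detected on all 9 other arrays, 13 (0.0849%) were detected on no premir miR-10b array. On premir miR-10b replicates 1 and 3 alone, 23 of the 15312 (0.15%) were detected on neither. The other BTRC probe, ILMN_1689438, is annotated to the same RefSeq transcript and was detected on no array, with raw signals of 52.0 to 75.5 across the 12 arrays. It therefore gives no second reading of BTRC.

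In the antimir arm, whose arrays had no part in the choice of BTRC, BTRC signal showed no detectable change with antimir-10b. The arrays do not show how far miR-10b itself was inhibited. ILMN_1815718 read 124.9, 110.9 and 146.2 in antimir-10b cells and 121.0, 122.0 and 137.1 in antimir control cells, detected on all 6 arrays. The groups overlapped, with means of 6.34 ± 0.35 and 6.35 ± 0.08 on the log2 scale (SD, n = 3 each) in antimir-10b and antimir control cells. The log2 change was -0.01, with a 95% interval of -0.44 to 0.41 (limma, adjusted p = 1.00), and with 11 arrays the interval was -0.37 to 0.34 (adjusted p = 0.999). With 3 arrays a group, a true change anywhere within these intervals remains compatible with the values. Antimir control cells differed from premir control cells by -0.22 on the log2 scale, a description with no test, and these groups overlapped after normalization. On the raw scale they did not overlap, as every antimir control array lay below the premir control arrays, at 145.7 to 160.2. In order of normalized level, premir control stood highest, antimir control and antimir-10b were next and overlapped with each other and with premir control, and premir miR-10b stood below all 9 other arrays.

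FBXW11, the paralogue that shares substrates with BTRC, was not called in either arm. Its probe ILMN_2394571 read 1806.7, 506.1 and 1199.7 in premir miR-10b cells and 1746.7, 1165.7 and 1299.4 in premir control cells. The low value was replicate 2, and the groups overlapped. The log2 change was -0.13 with 12 arrays (limma, adjusted p = 0.597) and 0.01 with 11, with a 95% interval of -0.26 to 0.28 (adjusted p = 0.993). The second probe of the same transcript, ILMN_2394576, read 456.4, 73.3 and 489.4 in premir miR-10b cells and 468.9, 433.0 and 431.6 in premir control cells. Replicate 2, at 73.3, was not detected on that probe, and both other premir miR-10b arrays were within or above the control range on the raw scale. After normalization replicate 1, at 8.20 on the log2 scale, lay below the controls, at 8.37 to 8.63, and replicate 3, at 8.90, above them. The log2 change of this probe depended on replicate 2: it was -0.92 with 12 arrays (limma, adjusted p = 0.459) and 0.05 with 11 (adjusted p = 0.987). Antimir-10b cells read 1325.6, 1077.2 and 1230.4 on ILMN_2394571, against 1056.2, 1100.2 and 1427.4 in antimir control cells, a log2 change of -0.06 (limma, adjusted p = 1.00). On ILMN_2394576 antimir-10b cells read 486.4, 400.6 and 363.7, against 467.9, 408.6 and 463.3 in antimir control cells, a log2 change of -0.21 (adjusted p = 1.00). Neither FBXW11 probe separated the antimir groups. The remaining 2 probes, ILMN_1735655 and ILMN_1766983, were detected on no array and read at most 74.1.

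FBXW7, the receptor for cyclin E, MYC and Notch, was read by 3 tested probes and none was called in either arm. ILMN_1754279 read 212.6, 97.2 and 115.4 in premir miR-10b cells and 201.1, 158.2 and 170.3 in premir control cells. Replicate 1 lay above the controls and replicates 2 and 3 below them on the raw scale. After normalization replicate 1, at 6.89 on the log2 scale, lay within the control range of 6.82 to 6.93. Replicate 2, at 7.35, lay above that range and replicate 3, at 6.16, below it. The log2 change of this probe was -0.07 with 12 arrays (limma, adjusted p = 0.878) and -0.34 with 11, with a 95% interval of -0.76 to 0.07 (adjusted p = 0.781). ILMN_1668634, annotated to the same transcript, read 105.1, 76.8 and 95.6 in premir miR-10b cells against 98.7, 83.6 and 86.9 in premir control cells, a log2 change of 0.28 with 12 arrays and 0.15 with 11 (adjusted p = 0.458 and 0.889). ILMN_1655906, annotated to another transcript, read 87.1, 83.6 and 90.6 in premir miR-10b cells against 93.1, 93.0 and 80.9 in premir control cells, a log2 change of 0.39 with 12 arrays and -0.03 with 11 (adjusted p = 0.471 and 0.987). Both of these probes read close to background, between 75.8 and 105.1 on all arrays. In the antimir arm the log2 changes were 0.16 for ILMN_1754279, 0.17 for ILMN_1668634 and -0.04 for ILMN_1655906, all with an adjusted p of 1.00. The remaining probe, ILMN_1770484, was detected on no array.

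SKP2, the receptor for p27, showed no call in either arm. ILMN_1665538 read 1050.3, 465.7 and 638.5 in premir miR-10b cells and 875.5, 553.1 and 670.9 in premir control cells, and the groups overlapped. Its log2 change was 0.33 with 12 arrays (limma, adjusted p = 0.458) and 0.22 with 11, with a 95% interval of -0.11 to 0.54 (adjusted p = 0.852). ILMN_1791002, annotated to another transcript, read 199.4, 53.5 and 160.9 in premir miR-10b cells and 186.7, 140.7 and 160.2 in premir control cells. Replicate 2, at 53.5, was not detected, and the log2 change was -0.47 with 12 arrays (adjusted p = 0.514) and 0.16 with 11 (adjusted p = 0.917). In antimir-10b against antimir control cells the log2 changes of these 2 probes were 0.07 and 0.05 (limma, adjusted p = 1.00 for both). A further probe, ILMN_1801391, was detected on 2 of 12 arrays and was not tested.

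Among the core subunits, CUL1 was the one whose premir arrays did not overlap. ILMN_1749629 read 1117.0, 537.0 and 785.1 in premir miR-10b cells and 956.0, 736.8 and 707.4 in premir control cells. After normalization the 3 premir miR-10b arrays ranged from 9.62 to 9.96 and the premir control arrays from 9.27 to 9.51 on the log2 scale, so that the groups separated only after normalization. The log2 change of 0.31 (SE 0.15, 95% interval -0.03 to 0.65) did not pass the threshold with 12 arrays (limma, adjusted p = 0.458), nor did 0.20 with 11 (adjusted p = 0.848). CUL1 read 1048.0, 684.7 and 803.2 in antimir-10b cells and 806.4, 705.9 and 971.1 in antimir control cells, which overlapped, with a log2 change of -0.08 (adjusted p = 1.00).

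RBX1 and SKP1 also carried no call. RBX1 probe ILMN_1666670 read 4162.0, 831.7 and 2196.5 in premir miR-10b cells and 3364.0, 2066.4 and 2886.7 in premir control cells, with replicate 2 the lowest of the 12 arrays. Its log2 change was -0.21 with 12 arrays (limma, adjusted p = 0.594) and 0.09 with 11 (adjusted p = 0.950). SKP1 probe ILMN_1711766 read 1049.4, 361.3 and 479.2 in premir miR-10b cells and 863.5, 661.0 and 675.5 in premir control cells, a log2 change of -0.01 with 12 arrays and -0.10 with 11 (adjusted p = 0.984 and 0.961). A second probe of that transcript, ILMN_3229770, read 356.2, 441.9 and 186.6 in premir miR-10b cells against 280.1, 240.5 and 272.2 in premir control cells. Here replicate 2 was the highest array, and the log2 change was 0.63 with 12 arrays and -0.11 with 11 (adjusted p = 0.479 and 0.957). For both SKP1 probes and RBX1 the log2 change in antimir-10b against antimir control cells lay between 0.04 and 0.13 (limma, adjusted p = 1.00 for each). The third SKP1 probe, ILMN_1790710, was detected on no array.

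**Figure D2:**
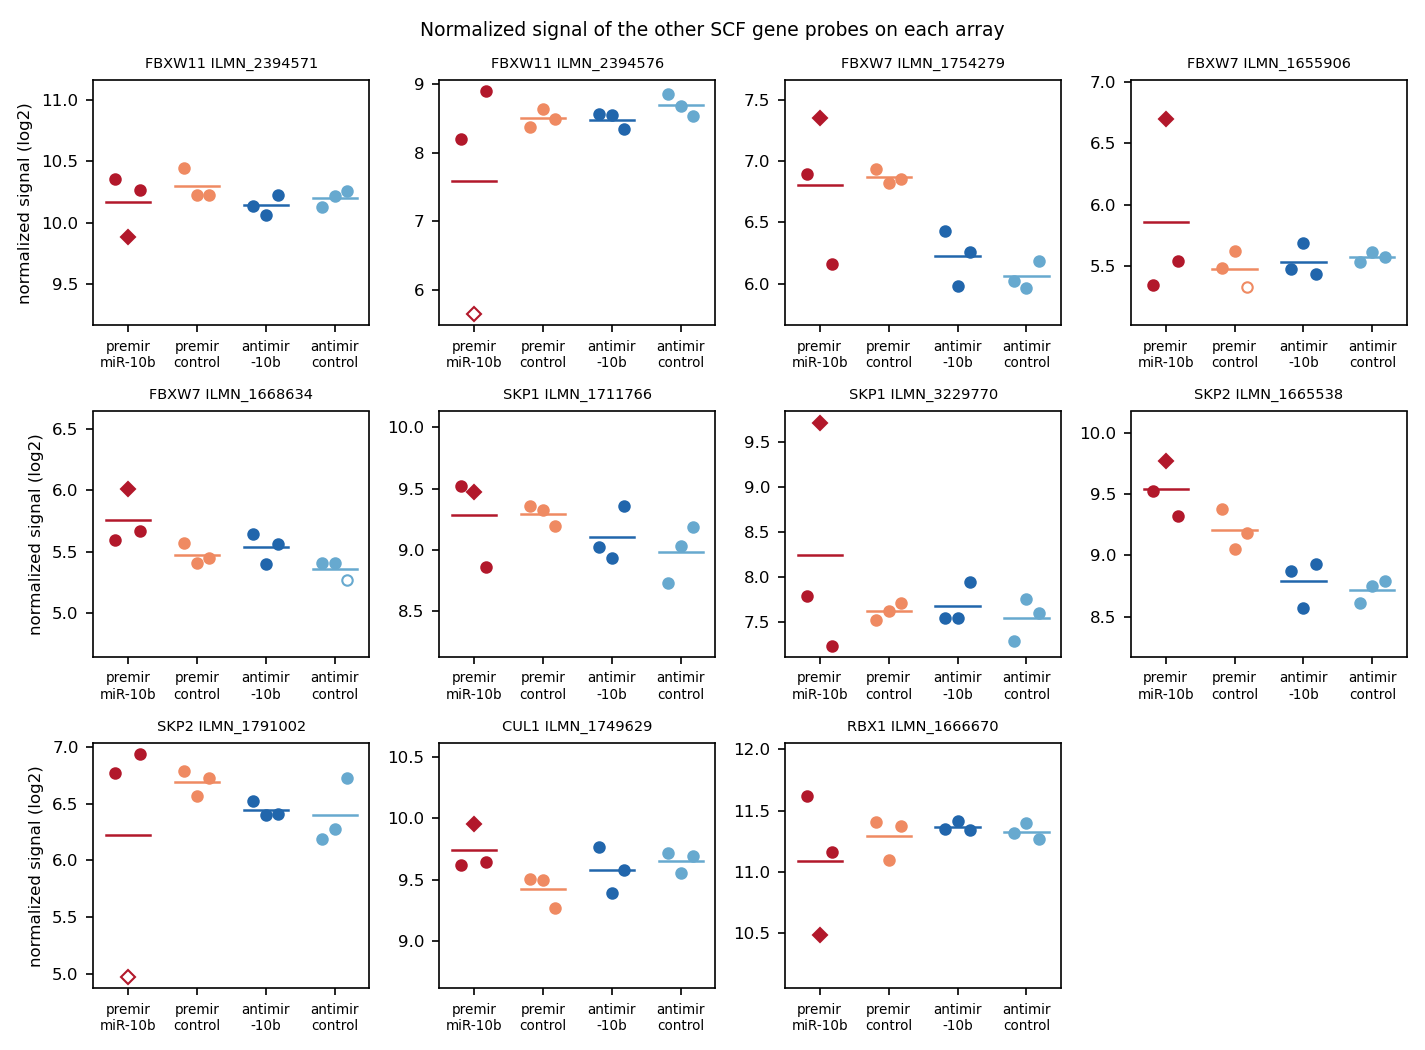
Normalized signal (log2) of the 11 tested probes of the other 6 genes on each of the 12 arrays, by group; filled symbols are detected, open symbols are not, the diamond is premir miR-10b replicate 2 and lines are group means; each panel has its own vertical range. Replicate 2 is far below the other arrays for FBXW11 ILMN_2394576 and SKP2 ILMN_1791002 and far above them for SKP1 ILMN_3229770.

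Across the genes as a set, BTRC was the only member whose normalized signal moved by more than 1 log2 unit between premir miR-10b and premir control cells, which is how it was chosen. Of the 18 probes, 12 passed the detection filter (1 of 2 for BTRC, 2 of 4 for FBXW11, 3 of 4 for FBXW7, 2 of 3 for SKP2, 2 of 3 for SKP1 and 1 of 1 each for CUL1 and RBX1), and 6 were not tested. In premir miR-10b against premir control cells, 0 of the 11 tested probes other than BTRC were called at an adjusted p under 0.05 by limma, with 12 arrays or with 11, and 0 had an unadjusted p under 0.05. Over all tested probes, 23 (0.109%) were called with 12 arrays, 7 higher and 16 lower, and 135 (0.637%) with 11 arrays, 45 higher and 90 lower. The 11 probes had a median log2 change of -0.01 with 12 arrays, against 0.02 over all probes, and 0.05 with 11 arrays, against 0.00. Groups did not overlap for 2 of the 11, CUL1 and FBXW7 ILMN_1668634, as for 11.4% of all probes with 12 arrays. With 11 arrays it was also 2 of 11, as for 19.6% of all probes.

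**Figure D3:**
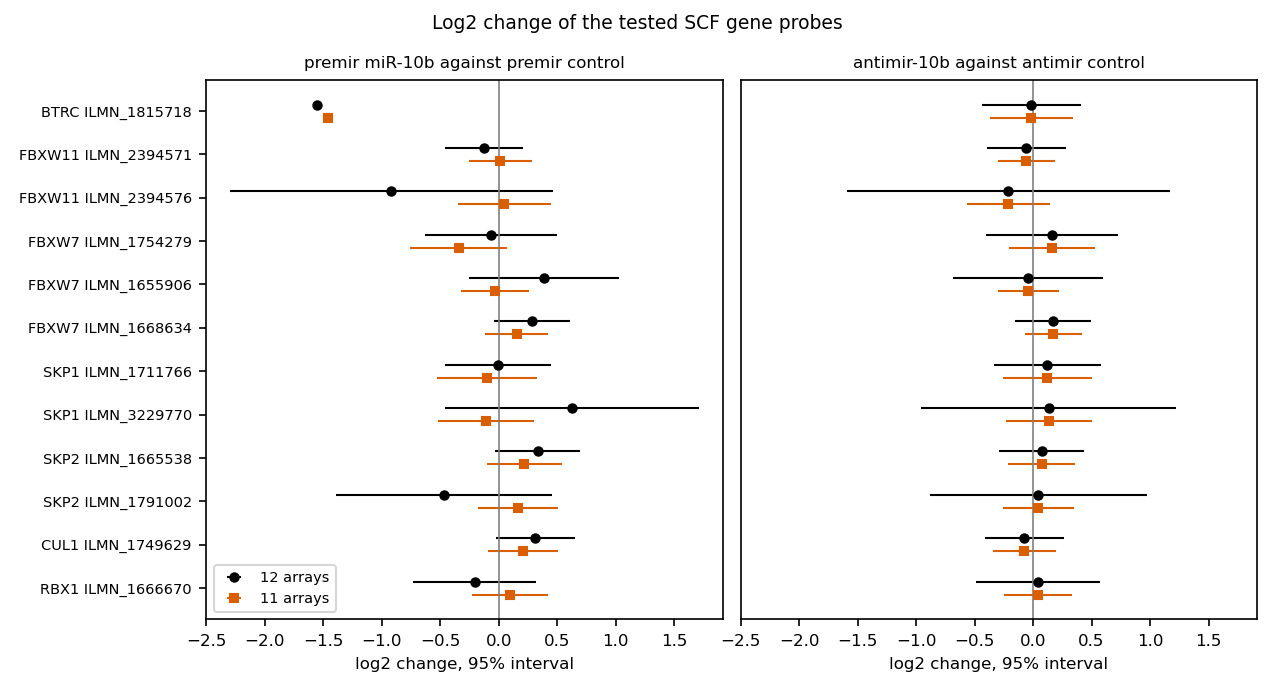
Log2 change of the 12 tested probes in premir miR-10b against premir control cells (left) and antimir-10b against antimir control cells (right), with 12 arrays (circles) and 11 arrays (squares); bars are 95% intervals, left off for BTRC on the left because that change chose it. BTRC lies at -1.56 and -1.46 on the left and at -0.01 on the right, and the intervals of the other 11 probes all include 0.

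The antimir arm held no call at all. In antimir-10b against antimir control cells, 0 of the 12 tested probes were called by limma with 12 or 11 arrays, as were 0% of all probes. Of all probes, 56 (0.264%) with 12 arrays and 480 (2.26%) with 11 arrays had an unadjusted p under 0.05. The 4 groups share 1 estimate of the spread, so premir miR-10b replicate 2 enters the 12-array p-values here too. For FBXW11 ILMN_2394576 the SE of the antimir change was 0.62 with 12 arrays and 0.17 with 11. The lack of calls therefore does not show a lack of change. The log2 changes of the 12 member probes lay between -0.21 and 0.17, with a median of 0.04 and 0 with an unadjusted p under 0.05. Groups did not overlap for 0 of 12, against 8.73% of all probes.

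The premir change was set against the antimir change in the same fit, to ask whether the 2 changes of a gene differed, which a change in 1 arm alone can bring about. For the 11 probes other than BTRC the difference ranged from -0.71 to 0.49 on the log2 scale with 12 arrays and from -0.51 to 0.28 with 11. None was called by limma, and none had an unadjusted p under 0.05. The lowest adjusted p was 0.744 with 12 arrays and 0.830 with 11. Over all probes 0% were called with 12 arrays, 650 of them at an unadjusted p under 0.05, and 64 (0.302%) with 11. For BTRC the difference was -1.54 with 12 arrays and -1.44 with 11, where the antimir change was -0.01, and it is given without a test.

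Between the 2 control oligos, FBXW7 and SKP2 had the smallest p among the SCF genes, and neither passed the threshold over all probes with 12 or 11 arrays. FBXW7 probe ILMN_1754279 read 109.4, 100.5 and 126.2 in antimir control cells and 201.1, 158.2 and 170.3 in premir control cells. All 6 antimir-arm arrays, at 100.5 to 143.0, lay below the premir control arrays. The log2 change was -0.81 (SE 0.26) with 12 arrays, with an unadjusted p of 0.00964 in limma (adjusted p = 1.00). With 11 arrays the change was the same (SE 0.17), and the unadjusted p was 3.77e-04 (adjusted p = 0.105). It was called when the 6 control arrays were fitted alone (adjusted p = 0.0133), with array weights (adjusted p = 0.00916), and with 11 arrays when premir miR-10b replicate 1 or replicate 3 was also left out (adjusted p as low as 0.0152). ILMN_1668634, of the same transcript, had a log2 change of -0.11 and ILMN_1655906 one of 0.09 (adjusted p = 0.743 and 0.811 with 11 arrays), so the separation appeared on 1 of 3 probes.

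SKP2 probe ILMN_1665538 read 403.7, 427.4 and 550.0 in antimir control cells and 875.5, 553.1 and 670.9 in premir control cells. Its log2 change was -0.49, with an unadjusted p of 0.0134 in limma. Adjusted over all probes, its p was 1.00 for the 12 arrays and 0.261 for the 11. The other SKP2 probe had a log2 change of -0.30 (adjusted p = 0.510 with 11 arrays). Of the 11 tested probes other than BTRC, 0 were called with 12 or 11 arrays, and 2 had an unadjusted p under 0.05. Over all probes, 4 (0.0189%) were called with 12 arrays and 40 (0.189%) with 11. Groups did not overlap for 4 of the 11 (FBXW7 ILMN_1754279, SKP1 ILMN_1711766 and SKP2 ILMN_1665538 lower in antimir control cells, CUL1 higher), against 19.6% of all probes. This comparison shares the premir control arrays with the premir comparison, so the 2 are not independent.

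**Figure D4:**
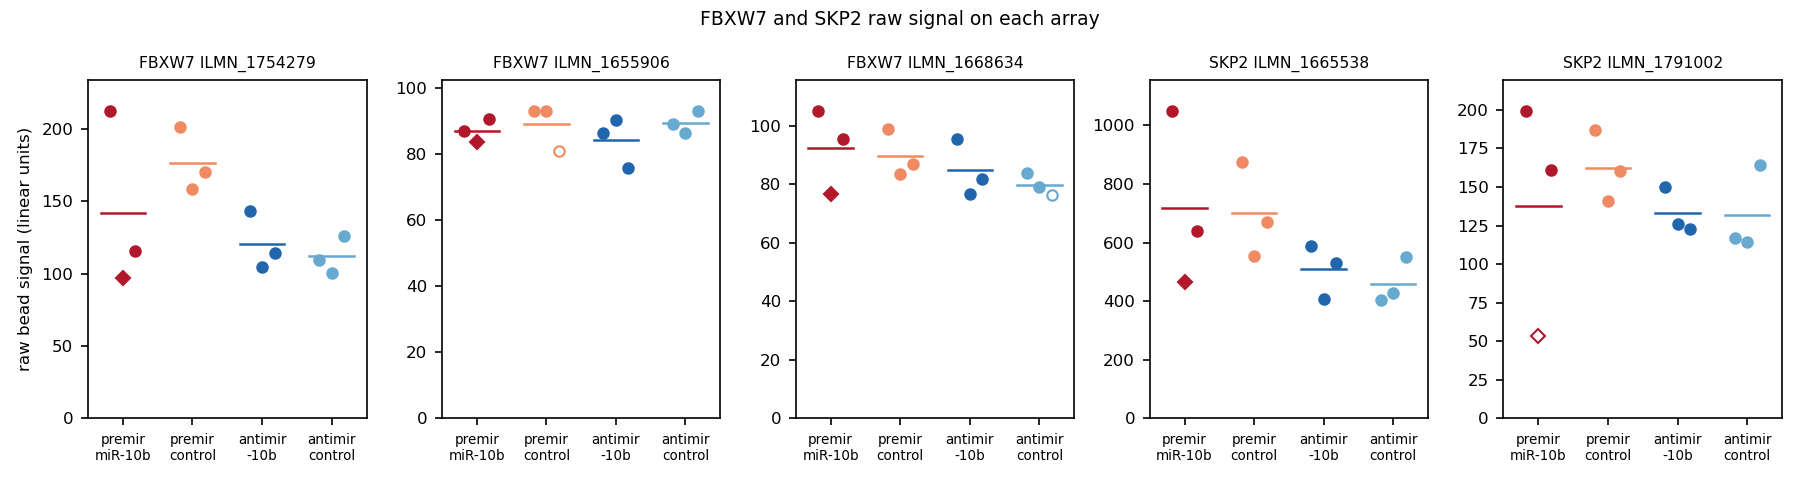
Raw bead signal (linear units, each panel from 0 with its own range) of the tested FBXW7 and SKP2 probes on each of the 12 arrays, by group; filled symbols are detected, open symbols are not, the diamond is premir miR-10b replicate 2 and lines are group means. FBXW7 ILMN_1754279 reads 100.5 to 143.0 on the 6 antimir-arm arrays and 158.2 to 201.1 on the premir control arrays, while the other FBXW7 probes show no such step.

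The features whose normalized signal followed BTRC most closely across the 12 arrays were HENMT1, an RNA methyltransferase, CDCP1, a transmembrane glycoprotein, DRC10, HTATIP2 and RPL13A, a ribosomal protein. Their Pearson correlations with ILMN_1815718 over 12 arrays were 0.968, 0.964, 0.955, 0.949 and 0.936. Over 11 arrays they were 0.961, 0.948, 0.935, 0.922 and 0.901. Over the 9 arrays outside the premir miR-10b group the values were 0.671, 0.877, 0.660, 0.113 and 0.076, so that HTATIP2 and RPL13A were hardly correlated with BTRC outside the premir miR-10b arrays. All 5 share these arrays and their normalization with BTRC, and the correlations are given as a description. Among the other SCF genes over 11 arrays, the correlation with BTRC lay between -0.52 for FBXW7 ILMN_1668634 and 0.42 for SKP1 ILMN_3229770.

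Genes around the SCF ligases were examined in 8 lists. These included other F-box genes, other cullins with their partners, the enzymes that attach and remove NEDD8 on cullins, and the E2 and partner enzymes. Further lists held proteins degraded through beta-TrCP, proteins degraded through FBXW7 or SKP2, and transcripts induced by beta-catenin and by NF-kB. With 12 arrays, 0 list probes were called in the premir or the antimir comparison by limma. With 11 arrays 5 were called in premir miR-10b against premir control cells, against 0.637% of all probes. Among 67 tested probes of other F-box genes 2 were lower, and among 29 probes of beta-TrCP substrates 1 was lower. In each of the beta-catenin (10 probes) and NF-kB (13 probes) lists 1 was higher. The other 4 lists, of 22, 29, 8 and 21 probes, had 0 calls. The list medians ran from -0.08 to 0.17 on the log2 scale with 11 arrays, beside 0.00 over all probes, and from -0.06 to 0.06 with 12, beside 0.02.

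The 2 F-box genes that fell with 11 arrays were FBXO45 and FBXO43. FBXO45 read 105.3, 83.7 and 99.5 in premir miR-10b cells and 199.0, 139.4 and 174.7 in premir control cells. Every premir miR-10b array lay below every premir control array on the raw scale. Normalized values were 5.60 and 5.77 on the log2 scale in replicates 1 and 3, below the premir control range of 6.55 to 6.91. Replicate 2, at 6.71, lay within that range. FBXO45 changed by -1.10 on the log2 scale (SE 0.19, limma, adjusted p = 0.0130) with 11 arrays and -0.76 (adjusted p = 0.458) with 12. Antimir control cells read 128.0, 98.3 and 155.7 for FBXO45 and overlapped with premir control cells. The log2 change between these controls was -0.47 (limma, adjusted p = 0.410 with 11 arrays). FBXO43, an inhibitor of the anaphase-promoting complex in oocytes, read 141.2, 55.3 and 103.1 in premir miR-10b cells against 185.7, 155.7 and 166.2 in premir control cells on ILMN_2344907. Its log2 change was -0.80 (SE 0.14, adjusted p = 0.0145) with 11 arrays and -1.13 (adjusted p = 0.239) with 12. Its second probe had a log2 change of -0.66 with 11 arrays and -0.85 with 12 (adjusted p = 0.0781 and 0.251). Antimir control cells read 152.9, 130.7 and 146.2 on ILMN_2344907, also below every premir control array on the raw scale. After normalization these control groups overlapped on that probe, with a log2 change of -0.16 (limma, adjusted p = 0.668 with 11 arrays, 1.00 with 12). On the second FBXO43 probe, ILMN_1670087, antimir control cells lay below every premir control array on both scales. The log2 change there was -0.33 (limma, adjusted p = 0.453 with 11 arrays). The FBXO45 call was lost in 3 of the 11 fits that left out 1 more array: premir control replicates 1 and 3 and premir miR-10b replicate 3 (adjusted p = 0.0594, 0.0719 and 0.0550). The FBXO43 call was lost without premir control replicate 1, 2 or 3 or premir miR-10b replicate 3 (adjusted p = 0.0520, 0.0631, 0.0710 and 0.177).

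PER2, a circadian clock protein degraded through beta-TrCP, fell with 11 arrays. It read 408.6, 293.2 and 241.0 in premir miR-10b cells and 550.0, 431.8 and 491.2 in premir control cells, all 3 below the controls on the raw scale. On the normalized log2 scale replicates 1 and 3, at 8.02 and 7.72, lay below the controls, at 8.63 to 8.70. Replicate 2, at 9.23, lay above them. PER2 changed by -0.79 on the log2 scale (SE 0.14, limma, adjusted p = 0.0172) with 11 arrays and -0.33 (adjusted p = 0.528) with 12. The call was lost without premir control replicate 1, 2 or 3 or premir miR-10b replicate 3 (adjusted p = 0.0554, 0.0641, 0.0893 and 0.223). The antimir control arrays, at 298.8, 307.0 and 380.4, also lay below every premir control array for PER2, a log2 change of -0.48 (adjusted p = 0.237 with 11 arrays, 1.00 with 12). No other tested probe of a beta-TrCP substrate was called.

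CXCL1, a neutrophil chemokine induced by NF-kB, rose with 11 arrays. It read 318.3, 134.5 and 204.6 in premir miR-10b cells and 167.3, 147.6 and 142.7 in premir control cells. Replicates 1 and 3 lay above the controls and replicate 2 below them on the raw scale. After normalization all 3, at 7.41 to 8.10 on the log2 scale, lay above the controls, at 6.49 to 6.67, with replicate 2 the highest. The log2 change was 0.92 (SE 0.16, limma, adjusted p = 0.0138) with 11 arrays and 1.12 (adjusted p = 0.0928) with 12. The call was lost without premir control replicate 1 or 3 or premir miR-10b replicate 1 or 3 (adjusted p = 0.0510, 0.0760, 0.0542 and 0.0526). The premir control arrays also lay below the antimir control arrays for CXCL1, which read 229.7, 174.7 and 223.1 there, a log2 change of 0.79 (adjusted p = 0.0459 with 11 arrays, 1.00 with 12).

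DKK1, a secreted Wnt inhibitor induced by beta-catenin, rose with 11 arrays on ILMN_1773337, which read 7597.8, 653.5 and 5748.3 in premir miR-10b cells and 4853.9, 3518.0 and 4378.5 in premir control cells. The low value was replicate 2. Its log2 change was 0.59 (SE 0.12, limma, adjusted p = 0.0424) with 11 arrays and -0.19 (adjusted p = 0.816) with 12, and the call was lost in 10 of the 11 fits that left out 1 more array (adjusted p up to 0.208). The second DKK1 probe, ILMN_2174189, had a log2 change of 0.61 with 11 arrays and 1.24 with 12 (adjusted p = 0.0935 and 0.458). It read close to background in premir control cells, at 88.4, 65.8 and 84.6, where replicate 2 was not detected. No antimir control array detected it. Premir miR-10b replicate 2 stood highest on this probe, at 7.79 on the log2 scale.

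**Figure D5:**
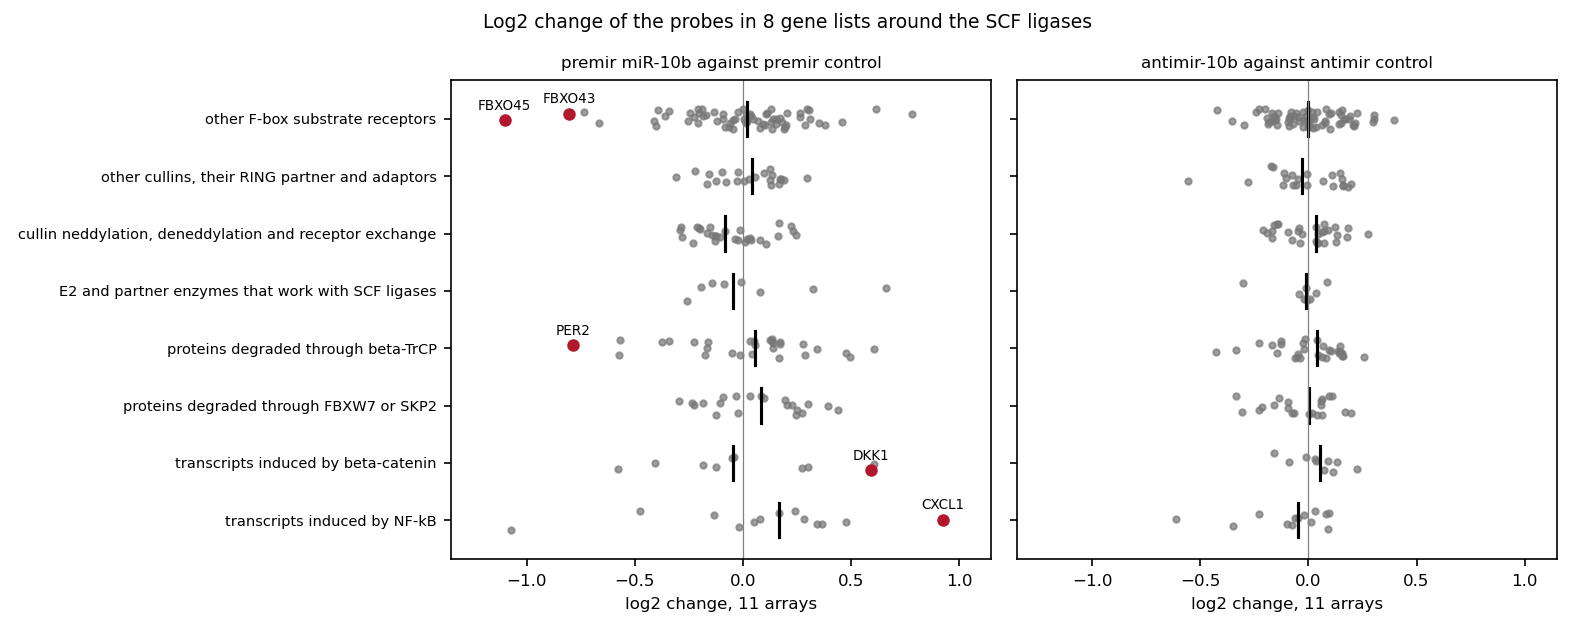
Log2 change with 11 arrays of every tested probe in the 8 lists, for premir miR-10b against premir control cells (left) and antimir-10b against antimir control cells (right); each point is 1 probe, vertical bars are list medians, and large named points were called at an adjusted p under 0.05. The 5 called probes on the left are FBXO45, FBXO43, PER2, DKK1 and CXCL1, and none is called on the right.

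In the difference between the premir and antimir changes with 11 arrays, 3 list probes were called: FBXO45 at -1.40 (limma, adjusted p = 0.0371), PER2 at -1.05 (adjusted p = 0.0371) and CXCL1 at 1.27 (adjusted p = 0.0246). With 12 arrays the differences were -1.06, -0.59 and 1.47 (adjusted p = 0.744, 0.744 and 0.444). Leaving out 1 more array ended the FBXO45 call in 10 of 11 fits, the PER2 call in 10 of 11 and the CXCL1 call in 8 of 11. In antimir control against premir control cells with 11 arrays, 2 list probes were called, CXCL1 and the E2 enzyme UBE2R2. The CXCL1 call was lost in 8 of 11 further fits (adjusted p up to 0.246). UBE2R2 read 119.0, 101.6 and 137.6 in antimir control cells and 65.5, 79.5 and 88.5 in premir control cells, a log2 change of 0.92 (adjusted p = 0.0312 with 11 arrays, 1.00 with 12), and the call was lost in 7 of 11 further fits. Premir control replicates 1 and 2 were not above background for UBE2R2 (detection p of 0.464 and 0.0558), so the size of this change rests on a group read mostly at background.

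With 12 arrays, where no list had a call, the genes with the smallest p in each list and direction were as follows. In premir miR-10b against premir control cells these had log2 changes of 0.66 for FBXO33 and -1.13 for FBXO43 among the F-box genes. Log2 changes were 0.61 for CUL4A and -0.95 for CUL4B among the cullins, and 0.69 for GPS1 and -1.09 for COPS8 among the NEDD8 enzymes. The values were 0.44 for UBE2R2 and -0.997 for CKS1B among the E2 and partner enzymes, 0.59 for FBXO5 and -0.80 for WEE1 among the beta-TrCP substrates, and 0.96 for CDKN1A and -0.29 for MTOR among the FBXW7 and SKP2 substrates. They were 1.24 for DKK1 (ILMN_2174189) and -0.59 for ZNRF3 among the beta-catenin targets, and 1.12 for CXCL1 and -1.59 for TNFAIP2 among the NF-kB targets. The limma adjusted p was 0.239 for FBXO43, 0.0928 for CXCL1 and 0.458 for the others. With 11 arrays the same probes had log2 changes of 0.46 for FBXO33, -0.80 for FBXO43, 0.30 for CUL4A, -0.31 for CUL4B, 0.24 for GPS1 and -0.29 for COPS8. Among the E2 enzymes and the substrates they were 0.66 for UBE2R2, -0.19 for CKS1B, 0.14 for FBXO5, -0.58 for WEE1, 0.44 for CDKN1A and -0.24 for MTOR. The induced transcripts had 0.61 for DKK1, -0.41 for ZNRF3, 0.92 for CXCL1 and -1.07 for TNFAIP2. Another probe of the same gene had the opposite sign with 12 arrays for CUL4B (0.35), GPS1 (-0.41), COPS8 (0.25), FBXO5 (-0.72) and DKK1 (-0.19). For FBXO5 the probes also had opposite signs with 11 arrays, the other one at -0.34.

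In antimir-10b against antimir control cells the genes named by the same rule had an adjusted p of 1.00 each (limma, 12 arrays). Their log2 changes were 0.39 and -0.19 for 2 probes of FBXO4, 0.16 for CUL5, -0.56 for ANAPC2, 0.12 for COPS5, -0.21 for COPS7B, 0.09 for UBE2D4 and -0.30 for CDC34. Among substrates they were 0.26 for PER2, -0.17 for CDC25A, 0.17 for CDKN1C and -0.34 for ORC1. Among induced transcripts they were 0.23 for LEF1, -0.16 for ZNRF3, 0.09 for TRAF1 and -0.61 for ICAM1.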

How the data were processed

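Total RNA of PANC-1 cells was hybridised to Illumina BeadChip arrays. The deposited non-normalized table gives the linear bead intensity of each probe on each array, with its detection p-value. A second deposited table of intensity holds the same values after multiplying each array by 1 constant (0.927 to 1.12), and served as an alternative. The sources used here name no slide, scanner, software or genome build (not given). No 2 arrays held identical values (66 pairs).

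In R 4.3.3 with limma 3.58.1, neqc used the deposited detection p-values to correct the background, added an offset of 16, normalized to common quantiles and took log2. Probes with detection p under 0.05 on at least 3 arrays were kept. Symbols came from the platform annotation (30113 probes with 1 symbol, 8 with several, 17110 with none). Each probe was tested alone, two-sided, in a model of 4 group means (lmFit, eBayes), with Benjamini-Hochberg adjustment over all probes and calls at an adjusted p under 0.05. The script was tested on simulated data. The fits gave 95% intervals, and the number of arrays limits their precision.

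The genes and lists were chosen with earlier results of these data known. Named were every member probe, the called genes of each list (at most 3 in each direction) or, with none, the gene with the smallest p in each direction, and the 5 features most correlated with BTRC. Alternatives covered the outlying array, background, normalization, filters, variance, array weights, arrays fitted, the replicate number and leaving out arrays.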

Additional observations from a re-analysis of the deposited data

How the results depend on the processing

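Across 35 alternatives (12 of processing, 23 that left out arrays), 0 of the 11 member probes other than BTRC were called in the premir and the premir-minus-antimir comparisons, where BTRC was not tested, and 0 of 12 in the antimir comparison. In antimir control against premir control cells the 0 became 1, FBXW7 ILMN_1754279, with array weights and with the compared arrays fitted alone, and 0 to 1 when arrays were left out. The premir log2 change of BTRC ranged from -1.68 to -0.94 and its antimir change from -0.21 to 0.10. List calls in the premir comparison, 0 with 12 arrays, were 5 when the 11 arrays were normalized alone, 8 with array weights and 0 to 12 when arrays were left out. Signs of uncalled member values turned in 78 of 410 premir, 28 of 410 antimir, 86 of 398 difference and 7 of 410 control-oligo values. Leaving out premir miR-10b replicate 2 alone turned the sign of 6 of the 11 premir values. The cause was not tested.

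Calls over all probes in the premir comparison, 23 with 12 arrays, were 135 without that replicate, 133 with the 11 normalized alone, 321 with array weights, 14 with the stricter detection filter, 9 on the authors' scaled values, 3 with median centring, 2 with trended and robust variances, 1 with the replicate block and 0 with the compared arrays alone. For the difference, 0 became 64 without that replicate and 263 with array weights. For the control oligos, 4 became 0 on scaled values, 1 with the replicate block, 2 with median centring or trended variances, 7 with an offset of 50, 39 and 40 with 11 arrays, 104 with the compared arrays alone and 167 with array weights. Leaving out 1 other array of the 12 gave 1 to 32 premir calls, with 1 without each premir control array and 32 without premir miR-10b replicate 1. Leaving out 1 more of the 11 gave 73 (without premir miR-10b replicate 3) to 374 (without replicate 1), where the lone premir miR-10b array is assumed to vary like the other groups, and 14 to 208 for the difference and 10 to 92 for the control oligos. The scaled values shifted the median of all probes by up to -0.17 and the stricter filter by 0.13 on the log2 scale.

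Same-numbered premir arrays correlated at 0.20, 0.02 and 0.05 in their deviations and same-numbered antimir arrays at 0.16, -0.08 and 0.37, and not every array matched its own number best, so numbers were not taken as pairs. The replicate block left 0 tested member probes called in every comparison. A slide block was not run, since the files name no slides, nor was the difference of effects with the compared arrays alone. With 3 arrays a group and BTRC read by 1 detected probe near background, small changes of dim probes could not be measured.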
